A study of Mus musculus with 2 samples.

Results

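The receptors that share the common gamma chain are described here by 9 mouse genes, which are the shared chain Il2rg, the private chains Il2rb, Il4ra, Il7r, Il9r, Il15ra and Il21r, and the receptor kinases Jak1 and Jak3. They were chosen by name, through the transcript accession of each probe, and are 9 of the 17176 genes named on the array. They were measured by 14 probes of the 41174 on it, each printed as a single spot. The study set CD8+ cytotoxic T cells against CD4+ helper T cells, both sorted from spleen cells of wild-type C57B6 mice with no treatment named, and 1 one-colour array was hybridised with RNA of each cell type. With 1 array a cell type there were no replicates and nothing could be tested between the cell types, and precision is limited by having only these arrays. The sources used here do not state the age or number of the mice or the gate of the sort. On the array of the CD8+ cells 58.6% of the non-control spots were well above background by the scanner software's flag, and on that of the CD4+ cells 63.1% were. The general T cell markers were above background on both arrays (6 of 6). Cd8a differed by 6.72 on the log2 scale in favour of the CD8+ array, and Cd4 by -2.04.

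Cytokines of this family signal through a receptor that joins Il2rg with further chains, called private here, which together decide which cytokine is bound. Il2rb serves both interleukin 2 and interleukin 15. JAK1 sits on the private chains other than Il15ra, and JAK3 on the shared chain. Once a cytokine brings the chains together, these kinases activate STAT proteins, which enter the nucleus and switch on genes of survival, growth and feedback inhibition. In T cells interleukin 7 and interleukin 15 are known for keeping naive and memory cells alive, interleukin 2 for driving the growth of activated cells and sustaining regulatory T cells, and interleukins 4 and 21 for steering helper and effector functions. Loss of the shared chain or of JAK3 leaves mice and humans severely short of lymphocytes.

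Of the 9 genes, 8 were well above background on both arrays, each within 1.39-fold between the cell types. The exception was Il9r, which was above background in CD4+ cells alone. No gene of the 9 was at least 2-fold apart in either direction. Over the 13063 named genes above background on at least 1 array, 6.9% were, with 2.24% up in CD8+ cells and 4.66% up in CD4+ cells. Signals below are the scanner software's processed signal, a background-subtracted brightness in intensity units, with that software's own error estimate for the spot, which ran from 10% to 10.4% of the signal over the probes of the 8 genes. Differences are CD8+ minus CD4+ on the log2 scale after each array was divided by its 75th percentile, a step that added 0.18 to every difference. Each difference of these 8 genes carries an error of 0.20 or 0.21 from the software's estimates, which cover the spot and not the animals. As the estimate was nearly the same share of the signal for all these probes, the error is no spread measured over repeated spots. Probes differ in how well they bind, so signals are compared between arrays for 1 probe and not between genes.

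**Figure D1:**
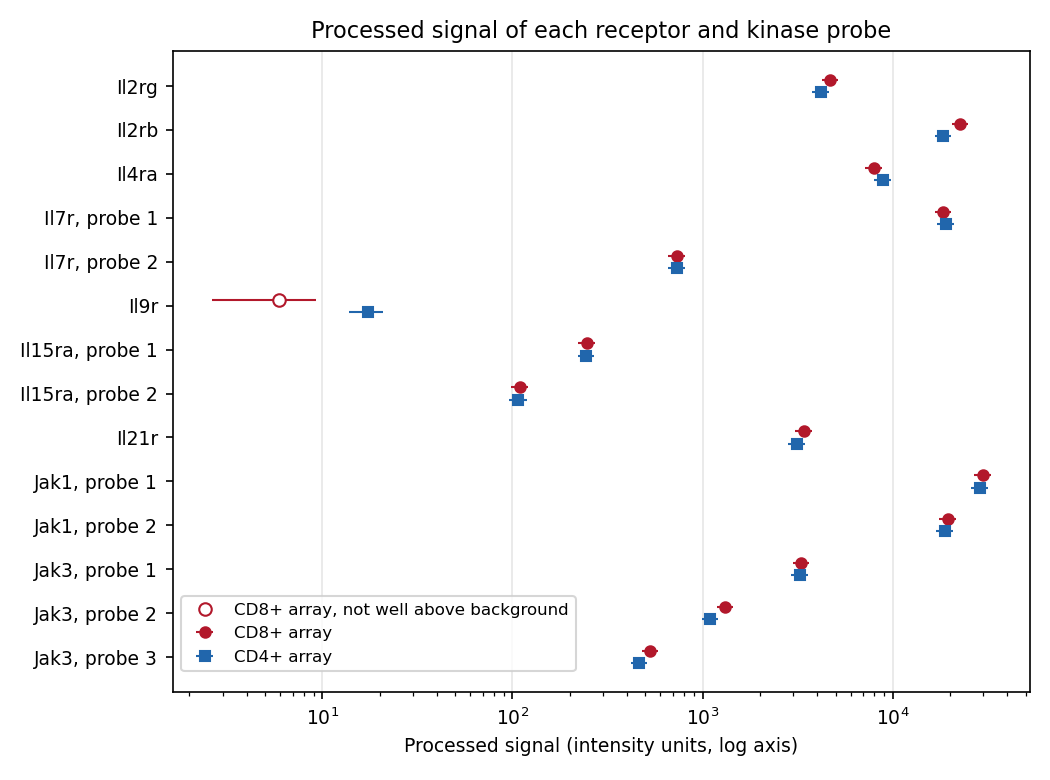
Processed signal (intensity units, log axis) of each of the 14 probes on the CD8+ array (circles, above) and the CD4+ array (squares, below), with bars for the scanner software's error estimate. The marks of each probe lie side by side except for Il9r, whose open circle on the CD8+ array (5.91) was not well above background.

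The shared chain Il2rg, which every receptor of the family needs, had a processed signal of 4699 ± 470 in CD8+ cells and 4182 ± 418 in CD4+ cells (software error). Its scaled difference was 0.34, or 1.27-fold higher in CD8+ cells. The software error of that difference was 0.20, and the difference was 0.49 with scaling to the median and 0.17 with no scaling.

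Il2rb, the chain that binds interleukins 2 and 15 and is known to be high on memory-type CD8+ cells and on natural killer (NK) cells, showed the largest difference of the 9 genes among those measured on both arrays. Its signal was 22712 ± 2271 in CD8+ cells and 18478 ± 1848 in CD4+ cells. The scaled difference of 0.47 ± 0.20 corresponds to 1.39-fold. It was 0.39 with quantile normalization, 0.62 with scaling to the median and 0.30 with no scaling, so that whether it exceeds its software error by a factor of 2 depends on the scaling. Of the 11957 genes measured on both arrays, 19.3% lay at least as far from 0. Of the NK cell markers, 3 of 4 were above background on each array, with a summed scaled signal of 0.364 in CD8+ cells and 1.11 in CD4+ cells, and Klre1 was not above background on either. Klrb1c differed by -2.34 and Ncr1 by -2.14, whereas Klra8 differed by 0.44, in the direction of Il2rb. The part of NK cells in the Il2rb signal was not tested.

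Il15ra, which presents interleukin 15 to cells that carry Il2rb and Il2rg, had signals of 246 ± 24.8 in CD8+ cells and 245 ± 24.7 in CD4+ cells on its brighter probe. The other probe read 109 ± 11.3 in CD8+ cells and 107 ± 11.1 in CD4+ cells. The scaled differences of 0.18 and 0.20 come almost wholly from the scaling step, since the unscaled ones were 0.0049 and 0.022.

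Il7r, the interleukin 7 receptor chain that marks naive and long-lived memory T cells, was just as close. Its brighter probe read 18490 ± 1849 in CD8+ cells and 19086 ± 1909 in CD4+ cells. Its dimmer probe read 730 ± 73.1 in CD8+ cells and 734 ± 73.5 in CD4+ cells. The scaled differences were 0.13 and 0.17, each smaller than its software error, and the unscaled ones were -0.046 and -0.0076.

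Il4ra, the interleukin 4 receptor chain, which also serves interleukin 13 together with Il13ra1, had the smallest difference of the 8. Its signal was 7969 ± 797 in CD8+ cells and 8883 ± 888 in CD4+ cells, a scaled difference of 0.02. The sign of so small a value depended on the scaling and was negative under 5 of the 11 alternatives, with a range from -0.033 to 0.16. Il21r, the interleukin 21 receptor chain, is its direct neighbour in the RefSeq annotation, with 0 genes between them. Il21r read 3405 ± 341 in CD8+ cells and 3129 ± 313 in CD4+ cells, with a scaled difference of 0.30 or 1.23-fold. The difference of Il21r shrank to 0.15 with normexp background correction on the median signal.

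Il9r, the interleukin 9 receptor chain, was near the limit of detection. Its only probe read 5.91 ± 3.29 in CD8+ cells, where the lowest signal of any probe called well above background was 14.7. It read 17.3 ± 3.48 in CD4+ cells, where that lowest signal was 12.4. The measured difference of -1.37 ± 0.85 therefore gives a bound of at least 1.04-fold lower in CD8+ cells, and after scaling to the median, quantile or loess normalization the bound was 1.0-fold and sets no difference apart. Markers of mast cells and basophils, which can also carry this receptor, were above background for 1 of 4 in CD8+ cells and 2 of 4 in CD4+ cells, with a summed scaled signal of 0.177 in CD8+ cells and 0.274 in CD4+ cells. Mcpt8 and Ms4a2 were not above background on either array, and the part of these cells in the Il9r signal was not tested. In RNA from sorted cells in bulk, fewer cells with a transcript and less of it per cell cannot be told apart.

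Both kinases were within 2-fold on every probe. Jak1, the kinase of the private chains other than Il15ra, read 29814 ± 2981 in CD8+ cells and 28718 ± 2872 in CD4+ cells on its brighter probe. Its other probe read 19576 ± 1958 in CD8+ cells and 18789 ± 1879 in CD4+ cells, and the scaled differences of the probes were 0.23 and 0.24. None of the signals of Jak1 or of the other members was saturated. Jak3, the kinase of the shared chain, read 3305 ± 330 in CD8+ cells and 3240 ± 324 in CD4+ cells on its brightest probe, a scaled difference of 0.20. Its dimmer probes read 1318 ± 132 and 531 ± 53.2 in CD8+ cells, against 1100 ± 110 and 465 ± 46.6 in CD4+ cells, with differences of 0.44 and 0.37. The probes of Jak3 thus ran from 1.15-fold to 1.35-fold. With no scaling the differences were 0.054 and 0.059 for Jak1, and 0.0285, 0.26 and 0.19 for Jak3 from its brightest to its dimmest probe. Over 3972 genes with several probes above background, the difference had an SD of 0.23 between probes of a gene, and over 158 probes with several spots it had an SD of 0.16 between spots.

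**Figure D2:**
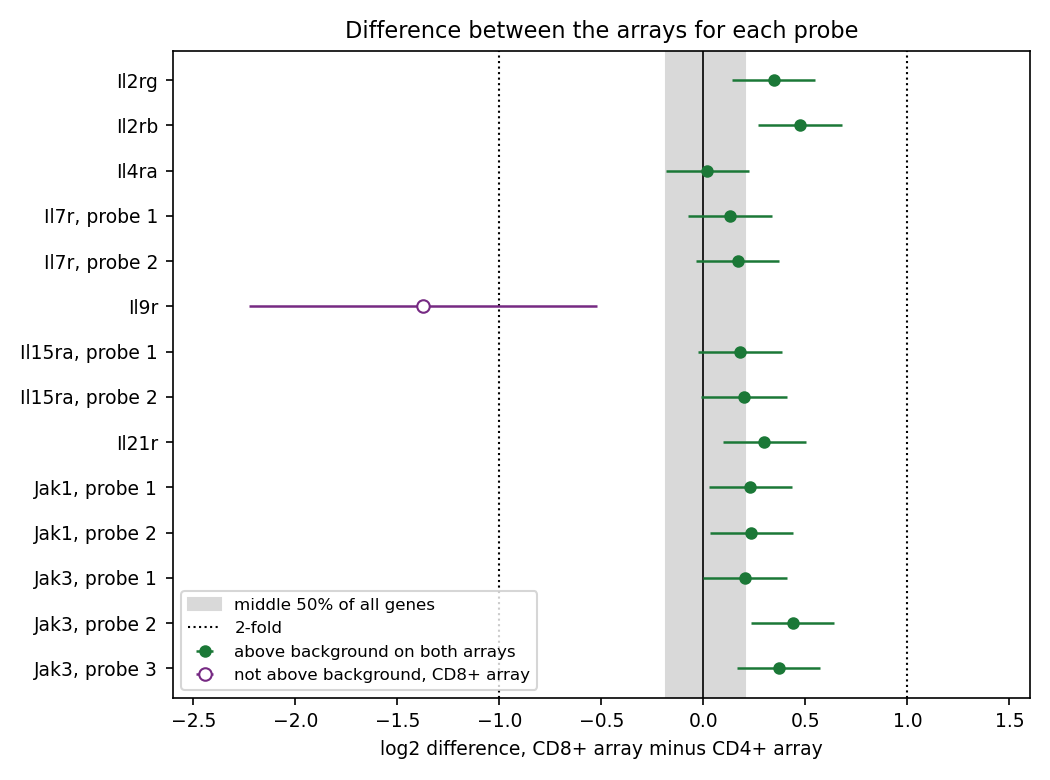
Log2 difference (CD8+ array minus CD4+ array, after scaling) of each of the 14 probes, with bars for the scanner software's error. The grey band holds the middle 50% of genes measured on both arrays (from -0.18 to 0.20), dotted lines mark 2-fold, and the open circle is Il9r, which was not well above background on the CD8+ array.

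The 8 genes measured on both arrays differed little among themselves. The largest gap, which scaling by a constant cannot move, was between Il2rb and Il4ra, at 0.45 ± 0.29, or 1.57 times its software error. Their median difference was 0.22, against 0.02 over all genes measured on both arrays. The 6 general T cell markers had a median of 0.17, with values from -0.84 to 0.50, so a median of about this size was not particular to the members. Of the 8, 5 lay above the 75th percentile of all genes (0.20) and 3 inside the middle 50%. Jak3, at 0.205, lay above that percentile of 0.202 by far less than its software error of 0.20. This count was made in the reported setting alone. The offset of their median from that of all genes ran from 0.165 to 0.241 over the settings tried, with 7 members above the median of all genes in each. Scaling to the median moved all genes by 0.14.

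By complex, the chains for interleukins 4, 7, 15 and 21 were above background on both arrays. Of the interleukin 9 receptor, the private chain was not above background in CD8+ cells. The interleukin 2 receptor differed through Il2ra, the alpha chain that turns the intermediate-affinity receptor of Il2rb and Il2rg into the high-affinity one and that is known from activated and regulatory T cells. Its brighter probe read 3.26 ± 3.13 in CD8+ cells, not well above background, and 133 ± 13.6 in CD4+ cells. Its other probe read 2.98 ± 2.97 in CD8+ cells and 25.1 ± 3.74 in CD4+ cells. The brighter probe put Il2ra at least 8.02-fold lower in CD8+ cells, or at least 2.48-fold with normexp, 3.38-fold with the series values and 3.48-fold with the mean over probes. Il2rb and Il2rg, its partners, were 1.39-fold and 1.27-fold higher in CD8+ cells. Like Il2ra, markers of regulatory T cells were lower in CD8+ cells when summed. Of 5, 4 were above background in CD8+ cells and 5 in CD4+ cells, their summed scaled signal was 36.6 in CD8+ cells and 69.6 in CD4+ cells, and 3 were at least 2-fold lower in CD8+ cells, with Foxp3 not above background there. Most of the sum came from Tnfrsf18, which read 16138 in CD8+ cells and 33306 in CD4+ cells and was 1.83-fold lower in CD8+ cells, while Ikzf4 differed by 0.05. Their part in the Il2ra signal was not tested.

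Other genes of the pathway were taken from a list of 43, of which 39 were above background on at least 1 array. Of these 39, 1 was at least 2-fold higher in CD8+ cells and 6 were at least 2-fold higher in CD4+ cells, and 32 were within 2-fold, with a median of -0.04 against 0.0050 over all genes above background on at least 1 array. The share at least 2-fold apart was 17.9%, beside 6.9% over all genes. The list was chosen with earlier results of these data known, so these shares are no independent comparison. The count at least 2-fold higher in CD4+ cells was 4 with normexp and 1 with brighter probes alone, which drop dim genes by construction. Partner chains of the members besides Il2ra were nearer to 0. Crlf2, which joins Il7r to form the receptor of thymic stromal lymphopoietin (TSLP), differed by -0.33. Il13ra1, which joins Il4ra, differed by -0.81, but by -0.38 with normexp and -0.49 with the series values. Il13ra2 was not above background on either array.

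The relay between receptor and nucleus stayed within 2-fold where it was above background. All 5 STAT genes of the list were within 2-fold, from -0.26 for Stat5b to 0.12 for Stat6, and Stat5a differed by 0.07. Of the other Janus kinases, Tyk2 differed by 0.50 and Jak2 by -0.09 on its brighter probe. The dimmer probe of Jak2 read 22.7 ± 3.69 in CD8+ cells and 43.4 ± 5.19 in CD4+ cells, a difference of -0.76. The mean over the probes of Jak2 gave -0.43. Of 7 genes listed as adaptors or phosphoinositide 3-kinase subunits, 6 were above background and all 6 were within 2-fold. The largest difference was 0.50 for Pik3cd, a catalytic subunit of that kinase in lymphocytes. Pik3r1, a regulatory subunit, differed by -0.37.

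Of 10 target genes of the list 9 were within 2-fold, as were 5 of 7 inhibitors, and the exceptions were Pim2, Cish and Socs2. Cish, a feedback inhibitor of STAT5 signalling, read 1475 ± 148 in CD8+ cells and 8146 ± 815 in CD4+ cells, 4.89-fold lower in CD8+ cells. Socs2, another inhibitor of the same family, read 48.9 ± 5.91 in CD8+ cells and 422 ± 42.3 in CD4+ cells, 7.63-fold lower in CD8+ cells (3.85-fold with normexp and 4.53-fold with the series values). Pim2, a survival kinase, went the other way. Its 3 probes read 2280 ± 228, 1740 ± 174 and 577 ± 57.8 in CD8+ cells, against 906 ± 90.6, 672 ± 67.2 and 201 ± 20.3 in CD4+ cells, with differences of 1.51, 1.55 and 1.70. The brightest puts Pim2 2.84-fold higher in CD8+ cells. The 3 probes were read on the same 2 arrays, so they are not replicates of a cell type, and their likeness does not cover the animals. Socs1 differed by 0.12 and Socs3 by -0.02. Bcl2, the survival gene sustained by interleukin 7, differed by 0.08, Mcl1 by -0.26, Myc by 0.43 and Pim1 by -0.72. The direction of these 4 values is not given as a change, since none reached 2-fold. Several marker lists had a median in the direction of Il2ra, Cish and Socs2. It was -2.55 for regulatory T cells, -2.43 for helper T cells, -2.14 for NK cells and -1.31 for dendritic cells. For mast cells and basophils it was -0.85, for plasma cells -0.73 and for monocytes and macrophages -0.32. Dendritic cell markers (5 of 5 with a probe above background on each array) had a summed scaled signal of 2.35 in CD8+ cells and 5.84 in CD4+ cells. Plasma cell markers (5 of 5 on each array) had 3.22 in CD8+ cells and 5.39 in CD4+ cells. B cell markers (7 of 7 above background on each array, summed scaled signal 29.7 in CD8+ cells and 19.2 in CD4+ cells) had a median of 0.54. Platelet markers had one of 0.69. Both medians lay in the direction of Pim2 and of the receptor chain Il21r. Cd8a, the only cytotoxic T cell marker with a probe, differed by 6.72 in that direction. The part of these cell types in the differences was not tested.

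**Figure D3:**
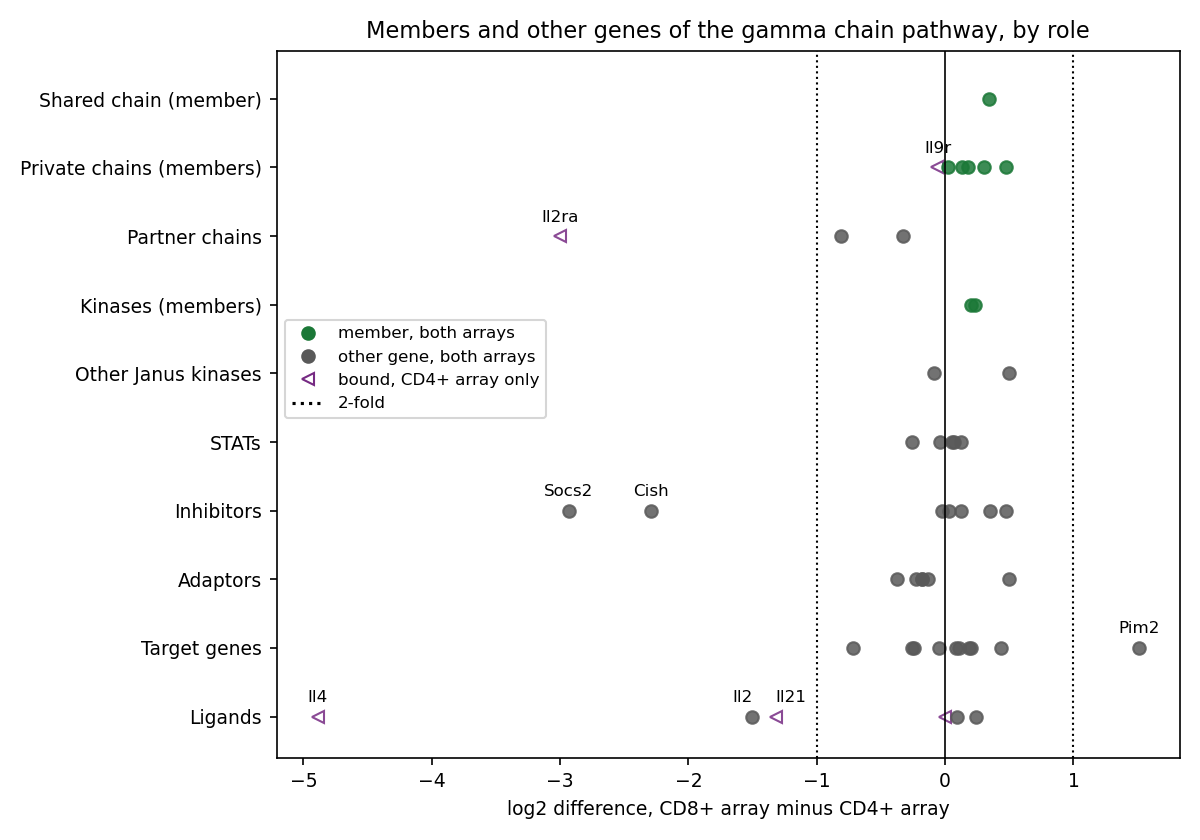
Log2 difference (CD8+ array minus CD4+ array) of the members (green) and the other genes of the pathway (grey), in rows by role, for the genes above background on at least 1 array. Triangles are bounds for genes above background on the CD4+ array alone, dotted lines mark 2-fold, and genes beyond 2-fold are labelled together with Il9r: Il2ra, Socs2, Cish, Il4, Il2 and Il21 lie on the CD4+ side and Pim2 on the CD8+ side.

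STAT5 and several other STAT proteins activated by these receptors bind a short palindrome, TTCNNNGAA, which reads the same on both strands. It was looked for in RefSeq promoter windows of GRCm38.p6, each from 250 bases before to 50 after a transcript's start, and this search was chosen after the values of Cish were seen. Of 32851 windows 8.3% held a match, and 0.457% held more than 1. Of the 8 members with a window, Il7r alone held a match. Of 34 other pathway genes with a window, Il4, Cish and Socs3 held at least 1, and Cish was the only gene of either list with 2 in a window. Its matches begin at bases 251 and 262 of the window, the first at the annotated start. That of Il7r begins at base 109. Capitals mark the matches in both windows, chr15:9529827-9530126 on the minus strand for Il7r and chr9:107296409-107296708 on the plus strand for Cish, written 5′ to 3′. A match describes the letters alone, and binding was not measured. Sites with another spacing between TTC and GAA were not searched.
Il7r: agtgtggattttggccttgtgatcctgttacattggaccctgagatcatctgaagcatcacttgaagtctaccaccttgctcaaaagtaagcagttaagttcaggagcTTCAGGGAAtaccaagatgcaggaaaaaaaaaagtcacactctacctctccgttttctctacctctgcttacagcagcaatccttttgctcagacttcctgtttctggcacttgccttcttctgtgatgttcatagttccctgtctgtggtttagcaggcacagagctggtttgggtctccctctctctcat
Cish: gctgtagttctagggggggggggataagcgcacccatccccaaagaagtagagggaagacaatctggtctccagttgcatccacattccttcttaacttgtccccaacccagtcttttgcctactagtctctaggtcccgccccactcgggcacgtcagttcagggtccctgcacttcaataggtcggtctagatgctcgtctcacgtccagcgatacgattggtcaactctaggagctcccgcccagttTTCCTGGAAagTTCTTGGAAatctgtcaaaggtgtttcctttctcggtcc
Of the genes with 1 match, Il7r differed by 0.13, Socs3 by -0.02 and Il4 by a bound of -4.89, and Cish, with 2, differed by -2.29. Il4 had 2 windows, of which 1 held its match. A link between matches and differences was not tested.

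The cytokines themselves are made by T cells only in part. Of 8 ligand genes 6 were above background on at least 1 array, and 3 were at least 2-fold lower in CD8+ cells. Il4, measured by 10 spots, read 4.60 ± 1.41 in CD8+ cells, not well above background, and 493 ± 17.7 in CD4+ cells (SD over spots), at least 29.7-fold lower in CD8+ cells (at least 6.83-fold with normexp and 9.18-fold with the series values). Its receptor chain Il4ra differed by 0.02. Il2 read 24.4 ± 5.44 in CD8+ cells over 10 spots and 76.8 ± 4.68 in CD4+ cells over 9 spots, 2.83-fold lower in CD8+ cells. Its other probe gave 1.17-fold, and the difference of Il2 was 1.43-fold with normexp, 1.63-fold with the series values and 1.82-fold with the mean over probes. Il21 read 3.24 ± 3.23 in CD8+ cells, not well above background, and 41.5 ± 5.24 in CD4+ cells, at least 2.5-fold lower in CD8+ cells, but at least 1.41-fold with normexp and at least 1.39-fold with the series values. Il15 and Il13 differed by 0.09 and 0.24, Tslp was just above background on the CD4+ array alone with no usable bound, and Il7 and Il9 were not above background on either array.

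**Figure D4:**
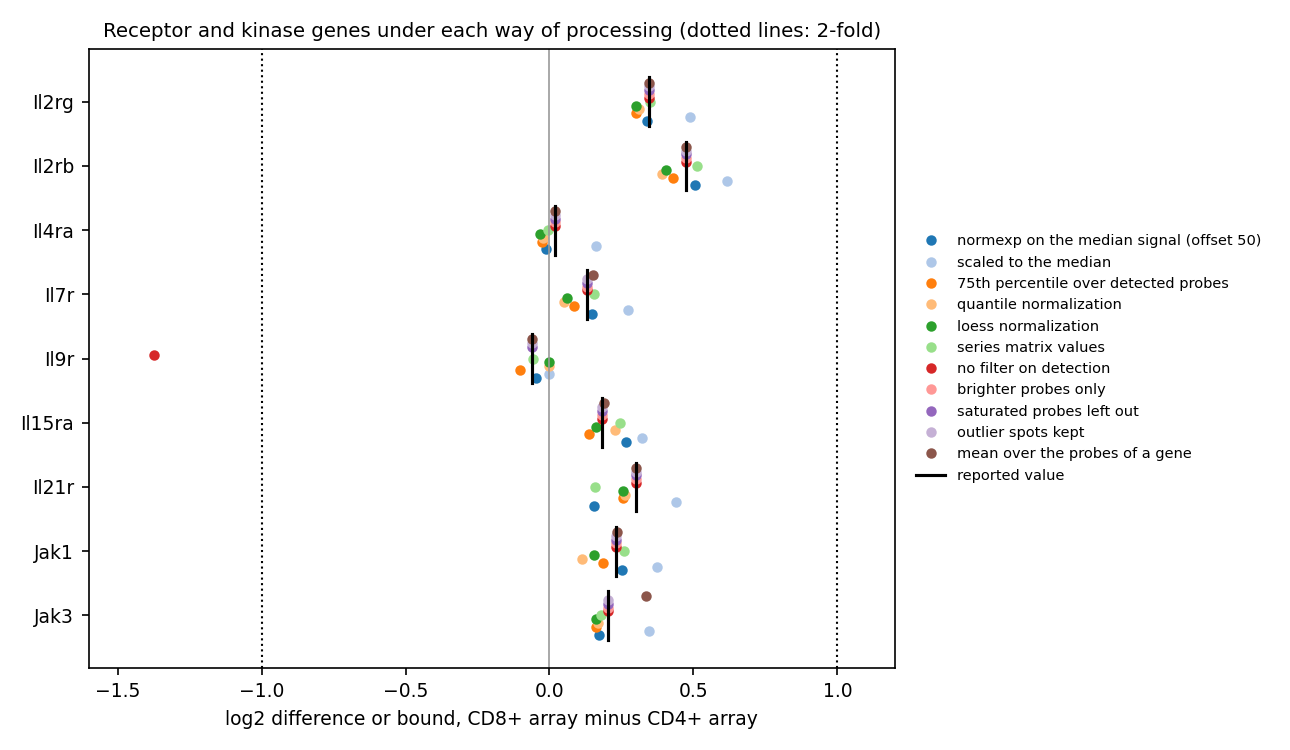
Log2 difference, or bound for Il9r, of the 9 genes (CD8+ array minus CD4+ array) as reported (black bars) and under each of 11 other ways of processing the arrays (coloured dots). No dot crosses the dotted 2-fold lines except that of Il9r when the detection filter was dropped (-1.37).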

How the data were processed

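RNA of sorted splenic CD8+ and CD4+ T cells was hybridised to 1 one-colour (Cy3) Agilent array each, on 1 slide per the file headers, which name Feature Extraction 10.1.1.1; version 9.1 of the same software stands in the submitters' processing notes. The deposited intensity, per the file headers, is the processed signal, background-subtracted and not scaled between arrays. The authors' series table was exactly equal to the deposited median signal for all 45018 spots of either array. It is thus linear, not background-subtracted and not centred, with a median of 73 for CD8+ cells and 80 for CD4+ cells.

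From these values, control spots and outlier spots were left out, log2 was taken and the 75th percentile of the processed signal (449.9 in the CD8+ array, 508.4 in the CD4+ array) subtracted. Probes were named through RefSeq accessions (24844 of 41174, 60.3%). A gene took its brightest probe above background, preferring one above background on both arrays. Where 1 array was not well above background, the bright level was set against the dim probe or, if higher, the dimmest probe called well above background on that array, which gave an "at least" fold. That is a bound, and with 1 array a group there is no test, so a gene is called apart at 2-fold. Named genes are all members, the pathway genes at least 2-fold apart and those with the largest difference of each role; other values were chosen after they were seen. The members and lists were chosen with earlier results of these data known. No likeness of pattern was ranked over 2 arrays. Alternatives are in the closing section. The gene rule was tested on simulated data. The tools were limma 3.58.1 in R 4.3.3, and pandas 2.3.3 with numpy 2.4.6 in Python 3.11.15.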

Additional observations from a re-analysis of the deposited data

How the results depend on the processing

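The 9 members were recomputed with normexp on the median signal (offset 50, used because no mean signal column is in the scanner files), scaling to the median, loess (span 0.3) or quantile normalization, the percentile taken over detected probes, the series values, no detection filter, brighter probes, saturated probes left out, outlier spots kept and the mean over probes. Of 98 pairs of a member and an alternative, 1 moved by more than the SD between probes of a gene (0.23), and none of the differences of a gene beyond 2-fold turned sign. The count of members at least 2-fold higher in CD4+ cells was 0, and 1 with no detection filter, where Il9r had -1.37; the count higher in CD8+ cells was 0 in every setting. The members' median ran from 0.16 to 0.35. Of the pathway genes, 6 were at least 2-fold higher in CD4+ cells, 4 under normexp or from the series values, 5 with the mean over probes, 7 with no detection filter, 4 at a 4-fold threshold, and 1 with brighter probes alone, which drop dim genes by construction. The 1 gene higher in CD8+ cells, Pim2, fell short of a 4-fold threshold, which left 0. Over all genes, 292 were at least 2-fold higher in CD8+ cells and 609 in CD4+ cells, a CD8+ share of 32.4%, against 124 and 238 under normexp, 148 and 294 from the series values, 616 and 1277 with no detection filter, and 120 and 175 with brighter probes alone. Scaling to the median raised that share to 44.9%. Signal near background limits Il9r, Il2ra, Il13ra1, Socs2, Il2, Il4 and Il21. No paired analysis was possible because each group has 1 array, and for the same reason no array could be left out; the slide could not be a block, since both arrays lay on 1.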
